A study of Mus musculus with 24 samples.

Results

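The genes described here are 34 cell cycle genes read in whole visceral adipose tissue of mice. They were chosen by name, 11 as genes of DNA synthesis (S phase) and 23 as genes of mitosis, and the 2 classes were kept apart throughout. All 34 are among the 27179 genes of the deposited count table, and all 34 were among the 17824 genes with enough counts to be tested. Total RNA of perigonadal fat was sequenced from 24 libraries in 6 groups of 4, females and males of each of 3 genotypes, aged 27 to 33 weeks. In the group labelled PpargFoxp3cre the gene for the fatty acid receptor Pparg is deleted by a Cre recombinase expressed from Foxp3, the gene that marks regulatory T cells. In TbetFoxp3cre the deleted gene is Tbx21, which encodes the transcription factor T-bet. The control group, labelled Foxp3cre (control), carries the same Cre without a deleted gene, so every mouse compared here has the Foxp3 Cre. The deletion is aimed at regulatory T cells and the measurement is of all cells of the tissue. The same 4 control libraries of a sex serve both knockouts of that sex. Perigonadal fat is a different depot in each sex, lying by the epididymis in males and by the ovary and uterus in females, so sex and depot cannot be told apart.

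A cell that divides first copies its DNA and then parts the copies. In S phase the Mcm proteins form the ring-shaped helicase that opens the double strand, Pcna is the sliding clamp that holds the polymerases, and ribonucleotide reductase (Rrm2), thymidylate synthase (Tyms) and thymidine kinase (Tk1) supply nucleotides. In mitosis the kinase Cdk1 with its cyclins drives entry, the Aurora kinases and the spindle proteins arrange the chromosomes, the checkpoint kinases hold the cell until all are attached, and Cdc20 and Ube2c let the anaphase-promoting complex end it. Transcripts of both classes are low in resting cells, and in adipose tissue macrophages, stromal progenitors, endothelial cells and lymphocytes can divide while mature adipocytes seldom do.

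The classes are also known for different promoter elements. The E2F element is known from S phase genes, and the cell cycle homology region (CHR), often with upstream CCAAT boxes, from mitotic genes. The 250 bases before the start of 3 mitotic genes and 3 S phase genes described below are shown 5′ to 3′ on the gene's strand, from RefSeq on build GRCm38.p6, to let the 2 layouts be seen side by side. Capitals mark a CHR, which is the letters TTTGAA and, as a second spelling, TTCGAA, on either strand. They also mark a CCAAT box, read as ATTGG where it lies on the other strand. The last marked is an E2F element, any of TTTCCCGC, TTTCGCGC, TTTGCCGC and TTTGGCGC on either strand.
Cdk1, chr10:69352913-69353162, minus strand: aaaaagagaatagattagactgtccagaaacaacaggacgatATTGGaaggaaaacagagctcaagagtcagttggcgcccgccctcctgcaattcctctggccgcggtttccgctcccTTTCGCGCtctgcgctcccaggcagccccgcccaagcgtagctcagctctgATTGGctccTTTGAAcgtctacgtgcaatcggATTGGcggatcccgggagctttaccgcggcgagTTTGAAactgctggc
Ccnb2, chr9:70421555-70421804, minus strand: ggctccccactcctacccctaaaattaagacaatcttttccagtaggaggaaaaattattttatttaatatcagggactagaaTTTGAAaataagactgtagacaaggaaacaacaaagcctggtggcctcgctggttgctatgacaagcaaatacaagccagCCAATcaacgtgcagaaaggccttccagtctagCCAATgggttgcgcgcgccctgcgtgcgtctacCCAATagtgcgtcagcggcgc
Cdc20, chr4:118437344-118437593, minus strand: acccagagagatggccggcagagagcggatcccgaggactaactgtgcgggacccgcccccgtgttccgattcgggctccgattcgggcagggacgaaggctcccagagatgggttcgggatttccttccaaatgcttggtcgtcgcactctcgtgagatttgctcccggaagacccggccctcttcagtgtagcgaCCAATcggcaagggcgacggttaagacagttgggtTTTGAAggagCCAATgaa
Mcm5, chr8:75109259-75109508, plus strand: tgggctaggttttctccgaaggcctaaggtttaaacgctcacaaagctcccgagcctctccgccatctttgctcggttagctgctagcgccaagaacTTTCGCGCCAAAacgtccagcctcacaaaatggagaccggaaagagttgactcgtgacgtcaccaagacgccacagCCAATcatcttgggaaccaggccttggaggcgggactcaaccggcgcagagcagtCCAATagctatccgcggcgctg
Rrm2, chr12:24708004-24708253, plus strand: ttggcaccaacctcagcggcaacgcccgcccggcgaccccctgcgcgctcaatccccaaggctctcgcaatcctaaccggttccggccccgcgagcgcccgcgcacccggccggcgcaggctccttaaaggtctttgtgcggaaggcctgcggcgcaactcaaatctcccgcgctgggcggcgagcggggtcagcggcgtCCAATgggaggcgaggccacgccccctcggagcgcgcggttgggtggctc
Pcna, chr2:132253181-132253430, minus strand: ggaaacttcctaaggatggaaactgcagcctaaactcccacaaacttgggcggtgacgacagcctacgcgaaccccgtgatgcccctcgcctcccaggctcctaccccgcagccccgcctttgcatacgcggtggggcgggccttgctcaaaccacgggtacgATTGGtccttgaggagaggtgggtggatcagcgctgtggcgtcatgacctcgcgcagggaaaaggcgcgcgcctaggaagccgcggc
Each of the 3 mitotic windows holds a CHR and more than 1 CCAAT box, and that of Cdk1 also an E2F element. In Ccnb2 the marked CHR lies upstream of all its CCAAT boxes. A further CHR match, at bases 4 to 9 from the start, lies outside the letters shown. The first capitals of Mcm5 are 2 overlapping E2F matches, 1 on each strand. Rrm2 and Pcna each show 1 CCAAT box and neither of the others.

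The same letters were counted in windows of 300 bases, 250 before the start and 50 from it, for the 28 of 34 genes found in the RefSeq promoter table. Mcm4, Ccne2, Ccna2, Aurkb, Kif20a and Tpx2 are not among them. A CHR was present in 15 of 19 mitotic genes (78.9%), 2 of 9 S phase genes (22.2%, Mcm2 and Mcm7) and 19.2% of all 32851 promoters. A CCAAT box was present in 17 mitotic genes (89.5%), 7 S phase genes (77.8%) and 37.4% of promoters. An E2F element was present in 1 mitotic gene (5.26%, Cdk1), 4 S phase genes (44.4%, Mcm3, Mcm5, Mcm6 and Mcm7) and 2.26% of promoters. Birc5 and Nusap1 among mitotic genes and Tyms and Tk1 among S phase genes held none of these letters, as did 49.8% of all promoters. A gene with several listed starts was counted once, if any window held the letters, and a match describes letters only.

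Total counts ran from 8345575 to 31022845 per library. Replicates 1 and 3 of each group belong to batch 1 and replicates 2 and 4 to batch 2, as the sample titles give them. Adipocyte markers were high in every library (mean of 9.02 to 11.95 log2 CPM, counts scaled to the library total), as the tissue label says. In 8 libraries epithelial keratins, claudins and like genes summed to over 100 CPM, up to 886.8 CPM in control female replicate 1, and in control male replicate 1 and Pparg knockout male replicate 3 the sperm protamine gene Prm1 was at 111.9 and 14.1 CPM. Tbx21 was at 0.441 to 1.27 CPM in control and 0.659 to 2.64 CPM in T-bet knockout females, and at 0.620 to 1.75 and 0.102 to 1.28 CPM in males. Pparg was at 64.8 to 362.2 CPM in control and 128.6 to 268.7 CPM in Pparg knockout females, and at 206.4 to 264.2 and 224.6 to 283.6 CPM in males. These ranges overlap in each sex, and since adipocytes express Pparg and other lymphocytes Tbx21, whole tissue RNA does not check a deletion in regulatory T cells. The labels do not say whether each library is an animal of its own, and the p-values below refer to the spread from library to library.

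Between genes, levels were compared on the deposited log2 FPKM scale, which accounts for transcript length. Pcna was the most abundant of the 34 at a mean of 4.70 log2 FPKM over the 24 libraries, above 81.5% of the genes on that scale. The helicase subunits Mcm7 (3.67), Mcm6 (2.92), Mcm4 (2.63) and Mcm3 (2.41) followed. The highest mitotic gene was Ube2c, the ubiquitin-conjugating enzyme of the anaphase-promoting complex, at 2.07 log2 FPKM. Most mitotic genes lay far lower: Cdk1 was at 0.04, Mki67, the common marker of dividing cells, at -0.11, above 17.5% of genes, and the kinetochore protein Cenpf lowest at -3.09, above 2.27%. The classes overlapped, since the S phase gene Rrm2 (0.58) lay below Ube2c and the checkpoint gene Bub1b (1.23).

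Averaged over the 11 S phase genes, the male control and male Pparg knockout groups were highest at 3.58 ± 0.23 and 3.64 ± 0.27 log2 CPM (SD, n = 4). The other groups were at 3.25 ± 0.24 in T-bet knockout males, 3.19 ± 0.14 in T-bet knockout females, 3.18 ± 0.23 in Pparg knockout females and 3.09 ± 0.12 in control females. The 2 highest groups differed by less than the SD of either, and so did each neighbour among the 4 lower groups, while the step from control males to T-bet knockout males exceeded both SDs.
The mean of the 23 mitotic genes was highest in control males (2.0 ± 0.27) and Pparg knockout males (2.0 ± 0.29), followed by T-bet knockout males (1.77 ± 0.40), Pparg knockout females (1.5 ± 0.55), T-bet knockout females (1.43 ± 0.42) and control females (1.04 ± 0.56). Here no neighbours in the order differed by more than their SD. The order of the groups thus ran from males to females in both classes, and control females were lowest in both.

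**Figure D1:**
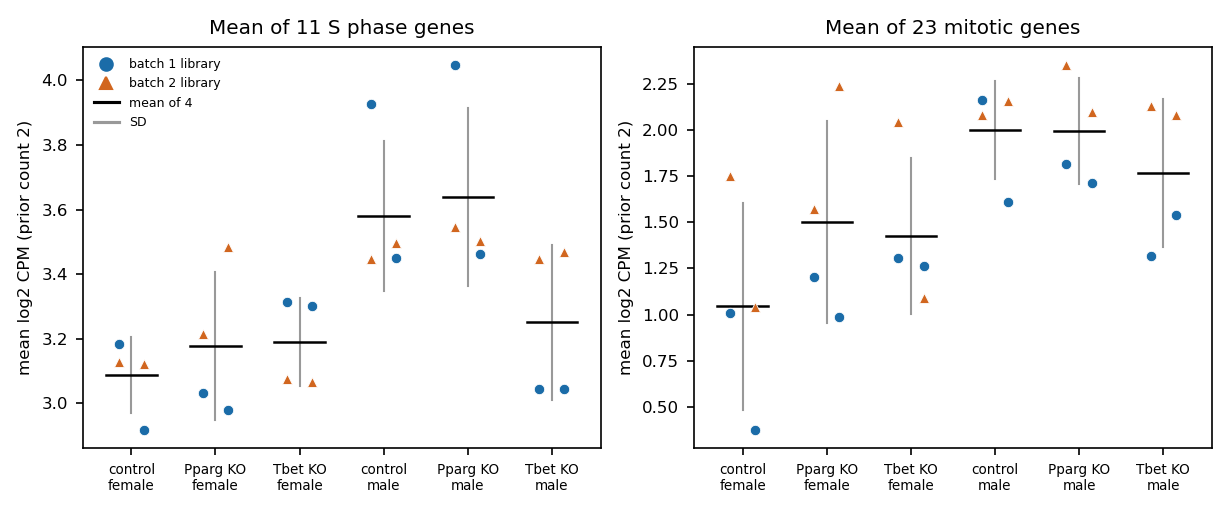
Mean log2 CPM of the 11 S phase genes and of the 23 mitotic genes in each of the 24 libraries, by group. Symbols give the batch, and the bars the group mean with its SD (n = 4). Control males lie at 3.45 to 3.93 in the S phase panel and control females at 2.92 to 3.19, without overlap, while in the mitotic panel control female replicate 2 (1.75) lies above control male replicate 3 (1.61).

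Control males against control females asks how the tissue differs between sexes when no gene is deleted in regulatory T cells, and it gave the clearest difference in these genes. In this comparison 27.2% of all tested genes passed an adjusted p of 0.05 in either direction and 13.6% were higher in males. Of the S phase genes 5 of 11 rose in males and none fell. Of the mitotic genes 12 of 23 rose and none fell. The median log2 difference, male minus female, was 0.54 over the 11 S phase genes and 1.12 over the 23 mitotic genes, against -0.04 over all tested genes. A difference above 0 was found in 9 of 11 and 21 of 23, against 47.1% of all genes. At an unadjusted p under 0.05, 5 S phase and 16 mitotic genes were higher, against 19.7% of all genes.

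Among S phase genes the helicase subunit Mcm5 and the reductase subunit Rrm2 rose most. Mcm5 was at 5.92, 6.74, 5.0 and 5.75 CPM in control female replicates 1 to 4 and at 22.4, 8.43, 13.0 and 9.33 CPM in control males. Every male library was above every female one, and male replicate 1 stood highest. The log2 difference of Mcm5 was 1.12 (SE 0.29, adjusted p = 0.00886). Rrm2, a subunit of the enzyme that limits deoxynucleotide synthesis, was at 2.38, 2.42, 1.51 and 1.58 CPM in females and at 8.09, 4.77, 4.02 and 5.0 CPM in males. These ranges did not overlap either, and the difference was 1.49 (SE 0.44, adjusted p = 0.0175).

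A smaller difference was called in 2 more helicase subunits. Mcm6 was at 18.6, 16.5, 16.2 and 17.3 CPM in females and at 35.1, 19.5, 21.9 and 23.2 CPM in males, a log2 difference of 0.54 (SE 0.17, adjusted p = 0.0261). The male libraries were all above the female ones, with replicate 2 close to the highest female. Mcm3 was at 9.75, 13.0, 9.47 and 15.3 CPM in females and 23.9, 15.1, 15.7 and 17.5 CPM in males (0.61, SE 0.20, adjusted p = 0.0281), with 1 male library just under the highest female. Tk1, the salvage kinase for thymidine, was 0.86 higher (SE 0.30, adjusted p = 0.0399), although male replicate 3 (3.46 CPM) lay under 2 of the female libraries.

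The remaining S phase genes were not called. Mcm2 (0.45) and cyclin E2, Ccne2 (0.54), had differences near the median of the class with adjusted p-values of 0.239 and 0.243. Pcna, the most abundant of these genes, was at 31.1, 30.5, 34.6 and 26.1 CPM in control females and at 45.3, 25.8, 36.4 and 31.1 CPM in control males. The 2 ranges overlap broadly, and the log2 difference was 0.16 (SE 0.11, adjusted p = 0.292). Mcm4 (0.06), Tyms (-0.09) and Mcm7 (-0.10) were close to 0. Mcm7 overlaps Ap4m1, with which it may share reads. The same limit holds for the called genes Tk1, Ccna2, Cdc20, Aurka and Nusap1, which overlap other genes named below.

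Among mitotic genes the spindle factor Tpx2 and the kinase it activates, Aurka, were both higher in control males. Tpx2 was at 1.33, 4.32, 1.01 and 2.41 CPM in females and at 4.92, 6.94, 4.49 and 8.0 CPM in males, a log2 difference of 1.55 (SE 0.36, adjusted p = 0.00401). Aurka was at 2.67, 3.05, 2.27 and 1.62 CPM in females and at 5.59, 3.22, 5.09 and 3.92 CPM in males (0.86, SE 0.22, adjusted p = 0.00774). The sexes did not overlap in either gene, narrowly so for both. Aurka (1713 counts in all) overlaps Cstf1 (14781 counts), with which it may share reads.

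Cdk1, the kinase that starts mitosis, was at 2.49, 1.90, 1.35 and 1.62 CPM in control females and 4.50, 4.15, 3.50 and 3.04 CPM in control males. All males lay above all females, with a log2 difference of 1.05 (SE 0.28, adjusted p = 0.0105). Its partner cyclin A2 (Ccna2) was called as well (0.83, adjusted p = 0.0265). Cyclin B2 (Ccnb2), at 1.45, 1.47, 0.535 and 0.828 CPM in females and 3.64, 1.92, 1.59 and 2.75 CPM in males, had separate ranges and a difference of 1.25 but narrowly missed the threshold (adjusted p = 0.0525). Cyclin B1 (Ccnb1) had a larger difference of 1.36 and a wider error (SE 0.67, adjusted p = 0.136).

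The chromosomal passenger complex, which corrects the attachment of chromosomes to the spindle, was represented by 3 genes. Borealin (Cdca8) was at 1.39, 3.29, 1.07 and 1.88 CPM in control females and 6.34, 3.53, 3.93 and 4.33 CPM in control males (1.29, SE 0.32, adjusted p = 0.00623), without overlap. Its kinase Aurkb was also called (1.22, SE 0.40, adjusted p = 0.0312), and survivin (Birc5), with a difference of 1.17, was not (adjusted p = 0.0719).

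Of the genes that time the exit from mitosis, Cdc20, the activator of the anaphase-promoting complex, was at 2.38, 1.86, 1.2 and 1.35 CPM in control females and 4.54, 2.48, 3.79 and 3.08 CPM in control males. The lowest male library was just above the highest female one, and the log2 difference was 1.03 (SE 0.32, adjusted p = 0.0226). Ube2c was not called (1.12, adjusted p = 0.0774), and 1 control female library, replicate 2, reached 4.76 CPM against 1.35 to 1.51 CPM in the others. The checkpoint kinase Bub1 was called (1.35, SE 0.48, adjusted p = 0.0415), while its relative Bub1b had a difference of -0.57 (SE 0.41, adjusted p = 0.320) and stood at 24.2 CPM in 1 female library (replicate 3), where the remaining 3 ranged from 5.80 to 8.39 CPM.

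Mki67 shows how much of the spread lies between batches. It was at 2.67, 14.5, 1.76 and 6.02 CPM in control females and at 10.0, 19.2, 5.51 and 20.8 CPM in control males. Female replicate 2 was above 2 of the males, but within each batch both males were above both females. In the fit, which includes the batch, the difference was 1.35 (SE 0.34, adjusted p = 0.00753). Top2a, the topoisomerase that untangles the copied chromosomes, was at 5.63, 9.95, 0.944 and 6.17 CPM against 8.80, 14.6, 5.61 and 15.3 CPM. Male replicate 3 lay just under female replicate 1 of the same batch. Top2a was not called (1.03, adjusted p = 0.0681). The kinetochore motor Cenpe (1.25, adjusted p = 0.0185), Cdca3 (1.32, adjusted p = 0.0147) and the spindle protein Nusap1 (0.87, adjusted p = 0.0252) were called. The kinetochore gene Cenpf (1.17, adjusted p = 0.147), the cytokinesis motor Kif23 (0.73, adjusted p = 0.128), the central spindle genes Prc1 (0.21) and Kif20a (0.16) and the kinase Plk1 (-0.18) were not.

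**Figure D2:**
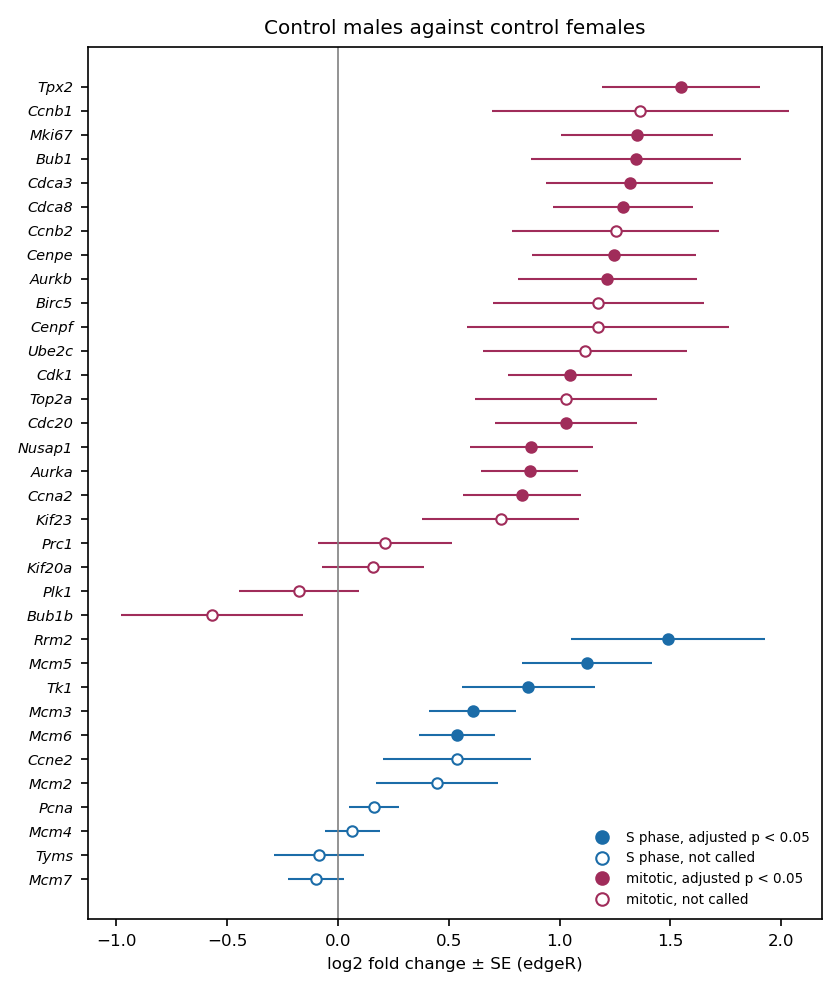
Log2 difference of each of the 34 genes, control male minus control female, with its standard error. Filled points passed an adjusted p of 0.05: 5 of 11 S phase and 12 of 23 mitotic genes, all to the right of 0.

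**Figure D3:**
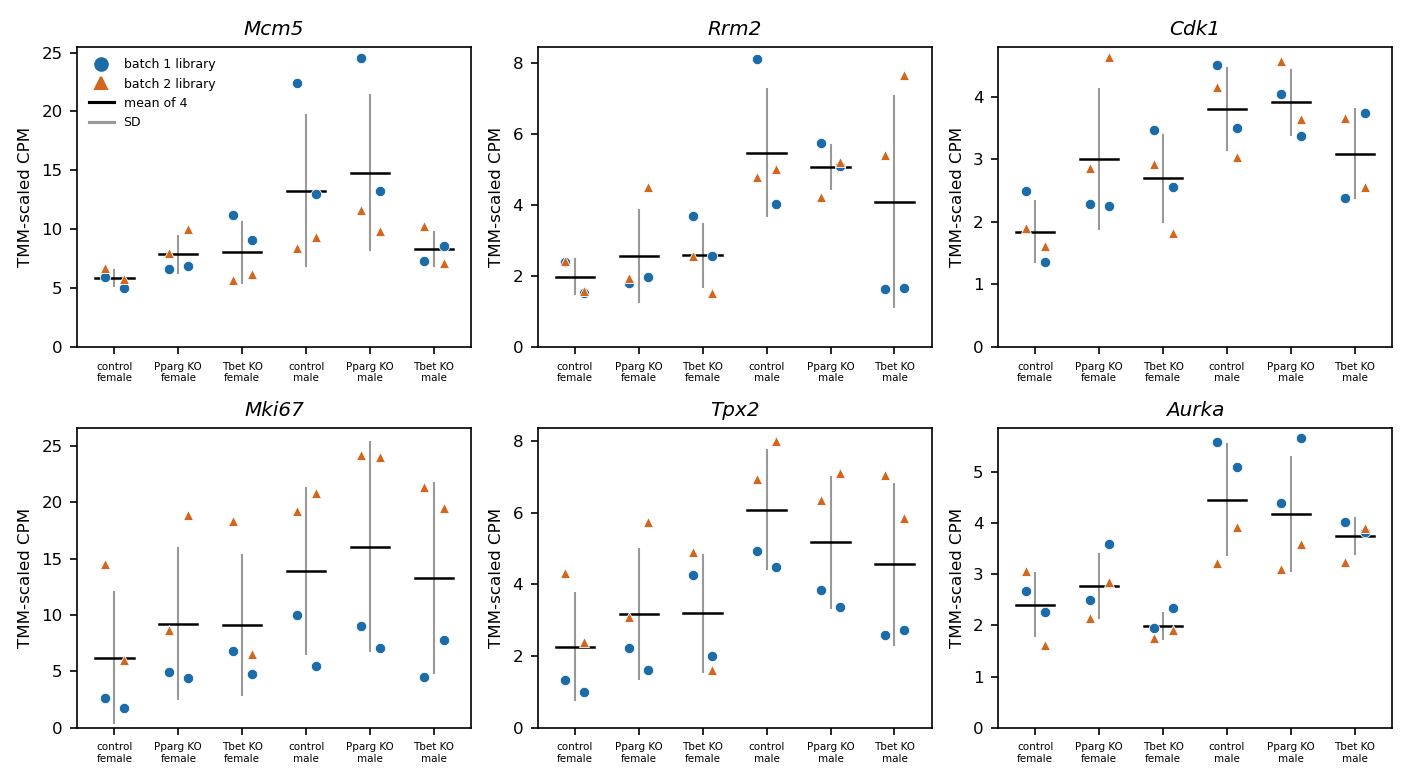
CPM of Mcm5, Rrm2, Cdk1, Mki67, Tpx2 and Aurka in each library of the 6 groups, with symbols for the batch. Control males lie above control females without overlap for 5 of the 6 genes, and for Mki67 only within each batch.

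In all, 9 of the 34 genes had every control male above every control female: Mcm5, Mcm6 and Rrm2 of S phase, and Aurka, Ccnb2, Cdc20, Cdca8, Cdk1 and Tpx2 of mitosis. Of all tested genes, 7.84% did. Mcm5, Aurka, Cdca8, Cdk1, Mki67 and Tpx2 were called in every fit that left out 1 library. Control male replicate 1 held the Prm1 transcripts and the highest Mcm5, Mcm6, Mcm3, Rrm2 and Cdca8. Without it the called genes fell to 1 S phase and 5 mitotic genes, while the share of all genes called in either direction fell to 17%. Without control female replicate 3 the counts were also 1 and 5, and the share 17.8%. Without both libraries with Prm1, 0 S phase genes and 5 mitotic genes (Aurka, Cdca8, Cdk1, Mki67 and Tpx2) were called, Mcm5 had a difference of 0.82 (adjusted p = 0.0542), and the medians were 0.33 and 0.89, with 16.3% of all genes called. Without control female replicate 4 the mitotic count was 7 (24.7% of all genes), and without control female replicate 1 the S phase count was 3 (23.8%). Shares of all genes here and in the next paragraph count both directions, while the members called in the full fit were all higher in males. In that fit 27.2% of all genes were called in either direction and 13.6% as higher.

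The batches differed in the size of the difference. In batch 1 alone, with 2 libraries against 2, the medians were 0.68 for S phase and 1.2 for mitotic genes, and 3 and 8 genes were called against 32.5% of all genes. In batch 2 alone the medians were 0.21 and 0.66, and 0 genes were called against 7.29% of all genes. The 17 genes called over both batches were all above 0 in each batch, at 0.68 to 2.13 in batch 1 and 0.21 to 1.29 in batch 2. They were picked as higher in a fit over these same libraries, so their shared sign is not separate evidence. Without the 8 libraries with epithelial transcripts, 3 S phase and 9 mitotic genes were called, with medians of 0.64 and 1.2 and 19.8% of all genes called.

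Markers of other cells moved between the control groups too, where 13.6% of all genes were called higher in males and 27.2% in either direction. Of 8 macrophage markers 5 were higher in males, among them Cd68 (2.09) and Adgre1 (1.15), and their summed level was 174.7 to 601.0 CPM in control females and 657.0 to 751.8 CPM in control males. Of 6 markers of lipid-associated macrophages 4 were higher, among them Itgax (2.96), Spp1 (2.90) and Trem2 (1.61), with sums of 63.3 to 375.9 and 159.6 to 323.4 CPM. Of 5 endothelial markers 4 were higher (312.0 to 960.8 against 1149 to 1640 CPM). Mature adipocyte markers summed to 5457 to 28181 CPM in control females and 17520 to 48411 CPM in control males. Of 6 stromal progenitor markers 1 was higher and 3 were lower in males, while 0 of 8 T cell markers and 0 of 8 tested B cell markers were called, with T cell sums of 8.81 to 25.8 and 10.3 to 35.7 CPM. Of 5 tested testis germ cell markers Prm1 and Tnp1 were higher, and Prm1 was at 0 in all 4 control females. The part of these cells in the cell cycle difference was not tested, and in whole tissue more dividing cells and more transcript per cell cannot be told apart.

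Other genes of the cycle, from lists compiled by function, were read in the same fit. Of 26 replication factors 7 were higher in control males and 0 lower, with a median log2 difference of 0.34. Of all tested genes 13.6% were called higher, and 27.2% were called in either direction. Cdc45, the partner of the Mcm helicase, was 1.59 higher (adjusted p = 0.00088), the polymerase subunit Pole 1.38 (adjusted p = 0.00241) and Gins2, a further helicase partner, 1.05 (adjusted p = 0.00886). Chaf1a and Chaf1b, which load histones on new DNA, were called (0.82 and 1.10), as were Fen1 (0.66) and Cdc6 (0.93). Of 39 further mitotic genes 17 were higher and 2 lower, with a median of 0.85. Dlgap5 (1.62), the abscission protein Cep55 (1.89), Ckap2 (1.37) and the spindle protein Tacc3 (0.81) led by p, and the phosphatase Cdc25b (-0.77) and the securin Pttg1 (-0.30) were the ones that fell.

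The regulators of entry into the cycle did not move one way. They are read beside the 13.6% of all genes called higher in control males and the 27.2% called in either direction. Of 19 cyclins, kinases and factors of G1, 5 were higher and 1 lower in control males (median 0.26): E2f7, a repressor of the E2F targets, was 1.69 higher (adjusted p = 0.00102) and cyclin E1, Ccne1, 1.43 (adjusted p = 0.0109), while Cdk4, the kinase of D cyclins, was lower (-0.59, adjusted p = 0.0038). Of 7 inhibitors of cyclin-dependent kinases, Cdkn2b (1.32, adjusted p = 0.00175) and Cdkn1a (1.22, adjusted p = 0.0268) were higher in males, and Cdkn1b (-0.81, adjusted p = 0.00929) and Cdkn1c (-0.52, adjusted p = 0.0355) lower.

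The comparison of sexes in Pparg knockouts called 8.77% of all genes, 3.59% as higher in males. Of the 34 genes 1 was called: Bub1 was at 0.139, 0.526, 0.239 and 1.13 CPM in females and 1.51, 2.26, 1.02 and 1.64 CPM in males. Only the female replicate 4 reached into the male range, and the log2 difference was 1.91 (SE 0.48, adjusted p = 0.0194). Bub1 lost its call in 4 of the fits without 1 library. The medians were 0.46 for S phase genes, all 11 of them above 0 against 51.6% of all genes, and 0.47 for mitotic genes, against 0.01 for all genes. At an unadjusted p under 0.05, 6 S phase and 7 mitotic genes were higher, against 12.9% of all genes.

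The genes that led the control comparison had differences in the same direction in Pparg knockouts that missed the threshold. Mcm5 was at 6.59, 7.96, 6.84 and 10.0 CPM in females and 24.5, 11.6, 13.3 and 9.83 CPM in males, with 1 male library under the highest female (0.85, SE 0.29, adjusted p = 0.0719). Rrm2 (1.03, adjusted p = 0.142), Tk1 (0.86, adjusted p = 0.0781), Aurka (0.58, adjusted p = 0.103), Nusap1 (0.83, adjusted p = 0.0653) and Mki67 (0.79, adjusted p = 0.142) lay in between. Cdca3 was the one member with every male above every female (4.55 to 5.57 against 2.36 to 3.92 CPM), as for 3.97% of all genes. Of the related lists 3 replication factors rose (Cdc45 0.93, Fen1 0.71, Pola1 0.52), as did the cytokinesis factor Ect2 (1.04), Lin54 (0.56), Rbl1 (0.68) and Cdkn2b (1.09, adjusted p = 0.0156). Beside them, 2 of 8 macrophage and 4 of 6 lipid-associated macrophage markers were higher in males, against 3.59% of all genes. Their part was not tested.

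In T-bet knockouts the sexes differed in 9.31% of all genes, with 3.93% higher in males, and in 1 of the 34. Aurka was at 1.94, 1.75, 2.34 and 1.92 CPM in females and 4.01, 3.23, 3.83 and 3.91 CPM in males, fully apart, as for 5.66% of all genes. The log2 difference was 0.92 (SE 0.22, adjusted p = 0.0141), and it was called in every fit without 1 library. It was not called without a batch term, in either batch alone or without the 8 libraries with epithelial transcripts. The class medians were 0.03 for S phase and 0.30 for mitotic genes, against 0.03 for all genes. Mcm5 (0.09), Mcm7 (-0.20) and Pcna (-0.12) were near 0, Rrm2 was at 0.55, Mki67 at 0.38 and Cdk1 at 0.19, and Mcm4 (-0.35, adjusted p = 0.0814) pointed lower in males. Among related genes Cdc45 (1.28, adjusted p = 0.00925), Pbk (2.06) and Cdkn2b (2.03, adjusted p = 0.000232) were higher in males, and Cdc25b (-1.0), Cdk4 (-0.44) and Cdkn1b (-0.71) lower. Of lipid-associated macrophage markers 0 of 6 and of macrophage markers 1 of 8 were higher there.

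The knockouts against their controls ask whether loss of either factor in regulatory T cells goes with a change in these transcripts. With Pparg deleted in females, 0 of the 34 genes were called, by edgeR (0.0168% of all genes), DESeq2 (2.11%) or limma-voom (0.0337%). At an unadjusted p under 0.05, 6 mitotic genes were higher, against 5.54% of all genes, and no S phase gene was. The mitotic median was 0.52 and 20 of 23 differences were above 0, against 46.9% of all genes, and the S phase median was 0.06. Cdk1 was at 2.29, 2.85, 2.25 and 4.63 CPM beside 2.49, 1.90, 1.35 and 1.62 CPM in control females (0.71, SE 0.28, adjusted p = 0.337). The libraries overlap, with replicate 4 of the knockout highest. Aurkb (0.99, adjusted p = 0.342), Ube2c (1.13, adjusted p = 0.343) and Mki67 (0.71, adjusted p = 0.416) were similar in size, Mcm5 was at 0.44 (adjusted p = 0.573), and Pcna at 0.06.

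With T-bet deleted in females, 0 of the 34 genes were called by edgeR (1.22% of all genes), DESeq2 (6.92%) or limma-voom (2.66%). In edgeR 2 mitotic genes were higher at an unadjusted p under 0.05, against 7.91%. Mki67 was at 6.77, 18.3, 4.80 and 6.57 CPM beside 2.67, 14.5, 1.76 and 6.02 CPM in control females. The batch 2 library replicate 2 was highest in both groups, and the log2 difference was 0.81 (SE 0.34, adjusted p = 0.225). Ube2c (1.08, adjusted p = 0.236), Tpx2 (0.72, adjusted p = 0.303) and Cdk1 (0.56, adjusted p = 0.318) followed. Mcm6, at 19.0 to 23.8 CPM against 16.2 to 18.6 CPM, was the one member whose knockout libraries all lay above the controls (0.33, adjusted p = 0.335), a layout found in 2.83% of all genes. The medians were 0.09 for S phase and 0.42 for mitotic genes, 20 of 23 above 0 against 44.3% of all genes. In both female knockouts the T cell markers had medians of 1.03 and 1.12 and the macrophage markers of 0.56 and 0.74, none of them called; their part was not tested. In batch 1 alone Ube2c was called in T-bet knockout females, beside 3.46% of all genes.

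With Pparg deleted in males, 0 of the 34 genes were called by edgeR (0% of all genes), DESeq2 or limma-voom (1 gene of all tested by each). In edgeR 0 members passed an unadjusted p of 0.05, against 1.37% of all genes higher and 1.18% lower. The medians were 0.12 and 0.01. Mcm5 (0.17), Pcna (0.18), Mcm6 (0.19), Rrm2 (-0.11), Mki67 (0.15), Top2a (0.09) and Cdk1 (0.04) all lay close to 0 with adjusted p = 1.

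With T-bet deleted in males, 0 of the 34 genes were called by edgeR (0.00561% of all genes), DESeq2 (0.133%) or limma-voom (0.00561%), and most differences were below 0. At an unadjusted p under 0.05, 3 S phase genes and 1 mitotic gene were lower, against 2.2% of all genes. Mcm5 was at 7.26, 10.3, 8.60 and 7.14 CPM beside 22.4, 8.43, 13.0 and 9.33 CPM in control males, overlapping, with a log2 difference of -0.62 (SE 0.29). Mcm4 (-0.33), Pcna (-0.25), Nusap1 (-0.61), Cdc20 (-0.56), Tpx2 (-0.51) and Rrm2 (-0.51) were also negative, all with adjusted p = 1. The medians were -0.29 for S phase genes, 10 of 11 below 0, and -0.23 for mitotic genes, 19 of 23 below 0, against -0.01 for all genes, of which 48.5% were above 0. Macrophage markers summed to 415.1 to 665.2 CPM in T-bet knockout males and 657.0 to 751.8 CPM in control males (median log2 difference -0.42), and B cell markers to 19.7 to 61.3 and 53.0 to 231.5 CPM (-1.07), with 0 of 8 called in each; their part was not tested.

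The knockouts were also set against each other. In females 0 of the 34 genes were called by edgeR (0% of all genes), DESeq2 (0.583%) or limma-voom (0.0393%), the medians were 0.04 and -0.05, and Tyms (-0.44) and Aurka (-0.48) were lower in T-bet knockouts at an unadjusted p under 0.05, as were 3.28% of all genes. In males 0 of the 34 were called by edgeR (0% of all genes), DESeq2 (0.0337%) or limma-voom (0%), while all 11 S phase genes were below 0 in T-bet knockouts (50.7% of all genes were above 0), with a median of -0.40 and 4 lower at an unadjusted p under 0.05, against 2.39% of all genes. Pcna was at 29.8, 26.5, 29.0 and 29.7 CPM in T-bet knockout males and 51.4, 34.8, 40.4 and 29.9 CPM in Pparg knockout males. The ranges were apart by a small margin, and the difference was -0.42 (SE 0.11, adjusted p = 0.974). Mcm6 had ranges apart as well (-0.47), a layout of lower T-bet knockouts found in 0.999% of all genes, and Mcm4 (-0.42) and Mcm5 (-0.78) were the others of the 4. The mitotic median was -0.24. Macrophage markers had a median of -0.67 and B cell markers of -2.18 in this comparison, with 0 called; their part was not tested.

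Whether the effect of a knockout differed between the sexes was tested as the male effect minus the female one. For Pparg 0 of the 34 genes were called by edgeR (0% of all genes), DESeq2 (0.337%) or limma-voom (0%), and in edgeR 0 passed an unadjusted p of 0.05, against 3.16% of all genes higher and 2.98% lower. The medians were 0.00 for S phase and -0.49 for mitotic genes. Ube2c had a value of -1.32 (adjusted p = 0.805). For T-bet 0 of the 34 were called by edgeR (0.00561% of all genes), DESeq2 (1.37%) or limma-voom (0.0729%), and in edgeR 4 S phase and 4 mitotic genes were lower at an unadjusted p under 0.05, against 5.62% of all genes. The medians were -0.42 and -0.78, against 0.03 for all genes. Mcm6 (-0.62, SE 0.24, adjusted p = 0.368), Mcm5 (-1.03, SE 0.41, adjusted p = 0.368), Tpx2 (-1.23, SE 0.50, adjusted p = 0.370) and Cdk1 (-0.86, SE 0.39, adjusted p = 0.416) were among the 8. The medians were -0.79 and -1.19 in batch 1 and -0.02 and -0.23 in batch 2. These values reuse the control libraries of the comparisons above and are not separate evidence.

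**Figure D4:**
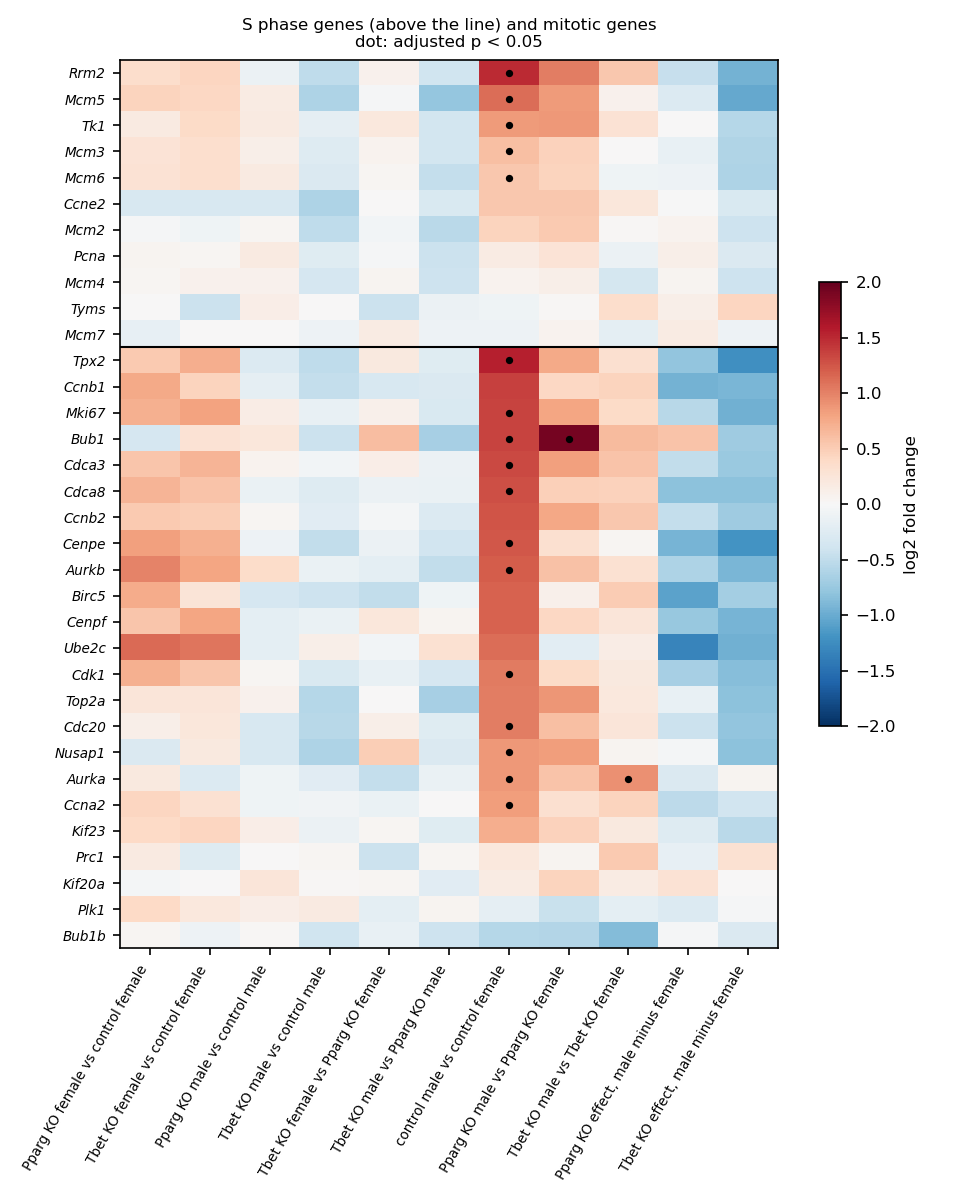
Log2 difference of the 34 genes (down the side) in the 11 pairwise and difference comparisons (across), as a heat map with dots where the adjusted p was under 0.05. The dots lie in the control male against control female column (17), with 1 for Bub1 in Pparg knockouts and 1 for Aurka in T-bet knockouts.

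A test for any difference among the 6 groups passed for 25.6% of all genes. It passed for 2 of 11 S phase genes, Mcm5 (adjusted p = 0.0145) and Mcm6 (adjusted p = 0.0383). It passed for 7 of 23 mitotic genes, of which Aurka (adjusted p = 0.00283), Bub1 (adjusted p = 0.0204), Tpx2 (adjusted p = 0.0238) and Mki67 (adjusted p = 0.0244) led, with Cdca8, Nusap1 and Cdca3 behind.

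The 2 batches, which hold 2 libraries of each group, differed in more genes than any pair of groups above: 51.7% of all genes, 26% higher and 25.7% lower in batch 2. This test was added after the data were seen. Of the mitotic genes 10 were higher in batch 2. Mki67 averaged 5.78 CPM in batch 1 and 16.8 CPM in batch 2 (log2 difference 1.59), and Top2a 4.78 and 12.1 CPM (1.37). Cenpe (1.66), Cenpf (1.5), Bub1 (1.35), Nusap1 (1.10), Kif23 (1.08), Tpx2 (0.94), Prc1 (0.76) and Kif20a (0.56) were the others, and Aurka was lower (-0.32). In S phase Mcm4 was higher (0.20) and Mcm7 (-0.54), Pcna (-0.31) and Tyms (-0.29) were lower.

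Exon length is set beside the batch difference here. The merged exons of those 10 mitotic genes had a median of 8063 bases (4059 to 15433), those of the other 13 mitotic genes 2946 bases (1531 to 5177), so that the ranges overlap, and those of S phase genes 3993 bases (2400 to 6956). Over all genes split by exon length into 5 classes of equal size, the median batch difference went from -0.35 in the shortest through -0.18, -0.02 and 0.19 to 0.35 in the longest. Across the 34 genes Spearman's rho between length and batch difference was 0.554, and across 17263 genes 0.373; genes share their libraries, so these are descriptions. Each group has both batches in equal number and the batch was a term of the fit behind the group differences above.

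**Figure D5:**
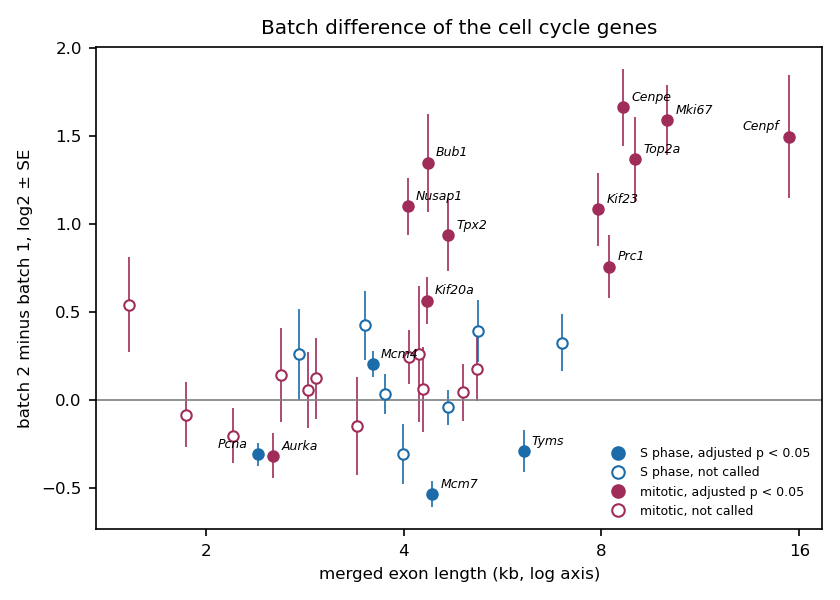
Log2 difference of each of the 34 genes, batch 2 minus batch 1, with its standard error, against the merged exon length in kilobases. Cenpe, Mki67 and Cenpf lie highest at 1.66, 1.59 and 1.5, and Mcm7 lowest at -0.54.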

How the data were processed

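Total RNA of 24 adipose tissue libraries was sequenced from TruSeq RNA libraries, per the labels' protocols. The authors deposited raw counts per gene, made with featureCounts on GRCm38 and mm10, and a log2 FPKM table per library, for which limma is also named, per the submitters' processing notes. Which aligner, annotation and strand setting were used is not given in the sources used here. If reads were counted without strand, overlapping genes may share reads, and how such reads were assigned is not given. The overlaps were taken from whole gene spans and not checked for shared exons. They were Mcm7 with Ap4m1, Ccne2 with Ints8, Tk1 with Afmid, Ccna2 with Exosc9, Cdc20 with Elovl1, Aurka with Cstf1, Kif20a with Brd8 and Cdc23, Nusap1 with Oip5 and Prc1 with Rccd1.

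The counts were analysed with edgeR 4.0.16 under R 4.3.3. Low genes were removed by filterByExpr, TMM scaled the libraries, and 1 quasi-likelihood model of 6 groups plus batch (17 residual degrees of freedom) was fitted to all 17824 genes kept of 27179. P-values were adjusted by Benjamini-Hochberg over all of these genes; called means an adjusted p under 0.05. Rises and falls are log2 differences from the fit, and log2 CPM values were made with a prior count of 2. CPM are scaled by TMM. The fit was tested on simulated counts of control males against control females, with changes put only into genes above a count limit. It recovered 58% of 2-fold and 90% of 4-fold changes (100 genes each), with 5 false calls among 17538 genes. The simulated counts took their spread from the fit and held no batch difference, so these rates may not hold for the real libraries. A gene that was not called may therefore still differ. Genes without a symbol (1029) stayed in the fit and were not named. FPKM served to compare levels between genes and as an alternative scale. The 34 genes and all related and marker lists were chosen with earlier results of these data known. Named were the called genes, those of lowest p in each comparison and members of fixed roles; single libraries and Bub1b were singled out after their values were seen. Alternatives were DESeq2 1.42.0, limma-voom 3.58.1, log2 FPKM, other scaling, no filter, no batch term, the source name's batch for control female replicate 1 (its title, which differs, was followed), a replicate block, each batch alone and each library left out. Leaving out 8 libraries with epithelial and 2 with protamine transcripts, and a batch term within each sex, were chosen after seeing the data. Same-numbered libraries of different groups deviated together, with every correlation over 0.1, in 2 of 15 pairs of groups (median correlation 0.00946), so the numbers were not taken as pairs. This check is weak. With 2 libraries per group and batch, replicates 1 and 3 deviate as mirror images and so do 2 and 4, which makes their correlations equal by construction.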

Additional observations from a re-analysis of the deposited data

Results flagged for a closer look

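Each of the 34 genes was read in 6 groups of 4 libraries, 204 sets in all, for a single library set apart from the other 3 (a gap to its neighbour, as a share of the group's range, over Dixon's 95% limit). In 15 sets (7.35%) there was one. Chance alone flags about 5% of independent sets without a batch difference. These sets span both batches and their genes vary together, so the 2 shares were not tested against each other. In Pparg knockout females replicate 4 was high for Rrm2 (4.50 CPM, others 1.80 to 1.96), Cdca3 (3.92, others 2.36 to 2.59), Cenpf (3.01, others 0.669 to 1.01) and the central spindle gene Prc1 (5.24, others 3.59 to 3.82), and replicate 3 was low for Ccnb1 (0.335, others 1.16 to 1.29). In T-bet knockout females replicate 2 was high for Mki67 (18.3, others 4.80 to 6.77), Ccnb2 (2.80, others 1.01 to 1.2), Cenpf (5.95, others 0.454 to 0.909) and Kif20a (7.24, others 3.33 to 3.39), and replicate 3 was high for Cdca8 (3.84, others 2.31 to 2.45). Both replicate 4 and replicate 2 are batch 2 libraries.

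In control females Bub1b was high in replicate 3 (24.2 CPM, others 5.80 to 8.39) and Ube2c in replicate 2 (4.76, others 1.35 to 1.51). In control males Mcm2 was high in replicate 1 (16.2, others 10.1 to 11.03), the library with Prm1, and Tk1 was low in replicate 3 (3.46, others 5.79 to 5.96). In Pparg knockout males Plk1 was low in replicate 4 (1.94, others 2.53 to 2.64). T-bet knockout males had none.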

How the results depend on the processing

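No called difference changed its direction. Of the counts of called genes recomputed under the alternatives, 497 stayed within 1.5 times and 71 moved further. A count of 0 in both fits was taken as stayed. Most comparisons had 0 called, so the tally says little about how stable the counts above 0 are. The share of all genes called moved too, for control males against females from 7.29% in batch 2 alone to 40.9% with a batch term in each sex. Knockout against control, T-bet against Pparg and the differences between sexes in effect stayed at 0 called of the 34 genes under every alternative but batch 1 alone, which called 1 mitotic gene (Ube2c) in T-bet knockout females. For control males against females (5 S phase and 12 mitotic genes), the counts were 3 and 5 without a batch term, 3 S phase genes in batch 1 alone, 0 and 0 in batch 2 alone, 2 S phase genes by limma-voom, 3 S phase genes without the 8 epithelial libraries, and 0 and 5 without the 2 protamine libraries; leaving out 1 library gave 1 to 5 and 5 to 15. For the sexes in Pparg knockouts (0 and 1), DESeq2 called 2 and 3 (15.7% of all genes) and limma-voom 2 mitotic genes (14.1%). A batch term in each sex called 3 and 4 (24.1%, against 8.77% in the reported fit). Batch 1 alone (12%) and the fit without protamine libraries called 1 S phase gene. There were 0 mitotic genes without a batch term (2.84%), in batch 2 alone (0.296%) and without epithelial libraries. Leaving out 1 library gave 0 to 2 and 0 to 2. For the sexes in T-bet knockouts (0 and 1, with 9.31% of all genes), a batch term in each sex called 2 mitotic genes. The fit without epithelial libraries called 1 S phase and 0 mitotic genes. No batch term (2.93%), batch 1 alone (2.42%) and batch 2 alone (5.98%) called 0 mitotic genes. Leaving out 1 library gave 1 in every fit. For any difference among groups (2 and 7, with 25.6% of all genes), no filter gave 4 mitotic genes (16.7%) and no batch term 1 and 1 (11.9%). Batch 1 alone gave 2 mitotic genes (23.8%) and batch 2 alone 0 and 0 (9.14%). DESeq2 gave 6 and 12 (38.1%), limma-voom 12 mitotic genes (29.9%) and log2 FPKM 4 S phase genes (26.4%). The fit without epithelial libraries gave 0 and 0, and that without protamine libraries 2 mitotic genes. Leaving out 1 library gave 1 to 4 and 2 to 8. Counts without a share beside them were not set against all genes and are not read as a change of these genes alone.

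With a replicate block, 1 S phase gene was called between the sexes in Pparg (7.1% of all genes) and 1 in T-bet knockouts (8.02%). For any difference 4 mitotic genes were called (21.9%). Between control sexes 19 genes were called (25.3%), among them all 17 of the fit without the block plus Ccnb2 and Top2a. Relative log expression scaling and the source name's batch moved no count. The cause of these changes was not tested, beyond the fewer libraries of some fits. Mitotic genes at about 1 CPM, such as Bub1, Ccnb1 and Cenpf, rest on few counts, and the part of depth was not tested.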

Other observations

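After the group and batch means were taken out, the genes of a class still moved together from library to library. Over the 24 libraries the mean correlation of residual log2 CPM was 0.388 between S phase genes, 0.345 between mitotic genes and 0.22 across the 2 classes, against 0.00189 between all tested genes; the libraries share depth and composition, so these are descriptions. Mki67 (0.86), Top2a (0.818) and Bub1 (0.81) followed the rest of the mitotic genes most closely, and Mcm5 (0.826), Pcna (0.757) and Mcm6 (0.754) the rest of the S phase genes. Bub1b did not follow its class (-0.128), and Ube2c (0.252), Plk1 (0.258), Mcm7 (0.0764) and Ccne2 (0.17) followed theirs weakly.

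From the related lists, Cdc45 and the kinase inhibitor Cdkn2b were picked out as called higher in males in all 3 genotypes. In control, Pparg knockout and T-bet knockout mice the log2 differences were 1.59, 0.93 and 1.28 for Cdc45 and 1.32, 1.09 and 2.03 for Cdkn2b. Of all tested genes 13.6%, 3.59% and 3.93% were called higher in these comparisons. The share called higher in all 3 was not counted, so these genes are not read as a trait of the cell cycle lists. No gene among the 34 was called in all 3.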
